A study of Mus musculus with 6 samples.

Results

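The 134 transcripts described here were abundant in germinal vesicle (GV) oocytes of wild-type (WT) mice and lower in oocytes of Bnc1tr/tr mice. They were chosen among the 17577 genes listed by 3 criteria on the deposited FPKM (fragments per kilobase of transcript, scaled to the mapped fragments of the library): a WT mean of at least 50, a ratio of the Bnc1tr/tr mean to the WT mean of at most 0.6, and every Bnc1tr/tr value below every WT value. Of the 2094 genes at the WT minimum, 6.4% met all criteria. The values that chose the transcripts are therefore given as a description. Calls of a model over all genes (limma) are given only for the background and for whole gene lists, and those of members say nothing beyond the criteria.

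A GV oocyte is arrested in the first meiotic prophase and carries the messenger RNAs that it made during growth. Transcription then falls silent until the embryonic genome is activated, so meiotic maturation, fertilization and the first cleavage are run on this stock. Part of it is stored with a short poly(A) tail, and elements near the end of the transcript direct when the tail is lengthened and the RNA translated. *Bnc1* encodes basonuclin 1, a zinc finger protein of germ cells and keratinocytes that binds promoters of ribosomal RNA and protein-coding genes.

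The study compared oocytes of 12-week-old C57BL/6 J mice that carried 2 truncated *Bnc1* alleles (Bnc1tr/tr, a frameshift allele) with WT oocytes, with 3 libraries per genotype and the replicates numbered 1 to 3 in each. Per the study's methods the mice had been primed with pregnant mare serum gonadotropin, littermates were compared, and each cDNA was made from a single oocyte by a modified Smart-seq2 procedure with an oligo(dT) primer. The deletion is in every cell of the mutant mice, so changes within the oocyte and those that follow from its follicle cannot be told apart. Nothing says whether the 3 oocytes of a genotype came from 3 animals, so the spread given below is that between these libraries. Values of single libraries are given in the order of replicates 1 to 3. *Bnc1* itself was listed at 9.04, 6.51 and 5.83 FPKM in Bnc1tr/tr and 13.2, 12.5 and 16.2 FPKM in WT, and FPKM of a whole transcript do not check a small deletion.

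The libraries were oocyte libraries by their markers. All 18 oocyte markers searched were listed, with summed levels of 18856 to 20940 FPKM in Bnc1tr/tr and 16438 to 21921 FPKM in WT. Of the markers of granulosa and cumulus cells 14 of 17 were listed, 8 of them under a mean of 1 FPKM. They summed to 49.4 to 66.1 FPKM in Bnc1tr/tr and 23.5 to 41.1 FPKM in WT. *Foxl2*, *Wt1* and *Amhr2* were at 0 in all mutant libraries. In 4 of the 14, *Fshr*, *Cyp11a1*, *Kitl* and *Nr5a2*, every mutant value was above every WT value, and in 0 below. Over the 10560 genes tested by limma, every mutant value was above in 32.7% and below in 14.1%. The markers of theca and stroma cells (8 of 11 listed) summed to 6.53 to 10.3 against 1.87 to 2.30 FPKM. Those of immune cells (12 of 12) summed to 66.7 to 144 against 66.4 to 97.7 FPKM. Most of the immune sum in WT was *C1qb*, at 82.7, 95.3 and 64.8 FPKM against 53.1, 70.7 and 58.6 FPKM in Bnc1tr/tr. Those of endothelial and blood cells (9 of 11) summed to 5.44 to 17.5 against 10.2 to 11.7 FPKM. Some markers of blood and immune cells were at 0 in all WT libraries and in Bnc1tr/tr replicate 3. Bnc1tr/tr replicates 1 and 2 held *Lyz2* at 5.81 and 47.97 FPKM, *Tyrobp* at 8.42 and 9.8 FPKM and *Pf4* at 7.61 and 1.3 FPKM. None of the 134 transcripts was in these short lists of other cells. However, *Ms4a1*, *Clec12a* and *Lsp1* among the 134 are best known from leukocytes, with ratios of 0.463, 0.444 and 0.261. The part of RNA of these other cells in the differences was not tested. The depth, estimated from the steps between low FPKM values, was 12.7 to 21.4 M fragments per library (M, mega), so the lowest value of any member (8.97 FPKM) rests on at least 114 fragments for a transcript of 1 kilobase. This number covers counting error only, since the amplified cDNA had no molecular identifiers.

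Together the 134 transcripts made up 3.38% ± 0.232 of the FPKM total in Bnc1tr/tr libraries and 6.47% ± 0.206 in WT libraries (SD, n = 3). Their median level was 55.4, 66.4 and 58.8 FPKM in Bnc1tr/tr replicates 1 to 3 and 115, 132 and 115 FPKM in WT. Over all genes at the WT minimum the library medians were close, 121 to 126 FPKM in Bnc1tr/tr and 124 to 131 FPKM in WT. The ratio of means ranged from 0.202 to 0.599 with a median of 0.522, beside a median of 0.934 over the 2094 genes. It was at most 0.5 in 57 members. The WT mean was 50 to 100 FPKM in 59 members, 100 to 1000 FPKM in 66 and at least 1000 FPKM in 9. FPKM are shares of a library, so a smaller amount of a transcript and a larger amount of all others cannot be told apart.

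**Figure D1:**
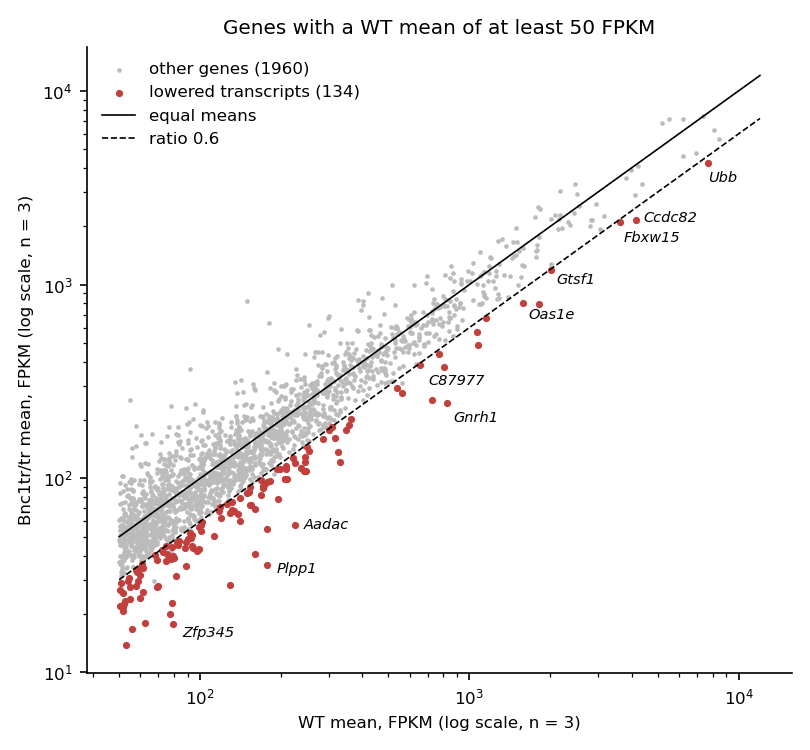
WT mean against Bnc1tr/tr mean in FPKM, both on log scales (n = 3 libraries each), for the 2094 genes with a WT mean of at least 50 FPKM. The 134 lowered transcripts (red) lie on or under the dashed line of a ratio of 0.6 over the whole range of abundance, and the 1960 other genes (grey) spread around the solid line of equal means.

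The criteria selected the tail of a broad difference. Every Bnc1tr/tr value was below every WT value in 530 of the 2094 genes (25.3%) and above in 321 (15.3%). The mirror-image criteria, a ratio of at least 1.67 with every mutant value above, held for 88 genes (4.202%). In limma on log2(FPKM + 1), 811 of 10560 tested genes were called lower (7.68%) and 2547 higher (24.1%) in Bnc1tr/tr (adjusted p under 0.05, with a log2 fold change beyond 0.5 in either direction). Among the 2094 abundant genes the shares were 11.6% lower and 7.64% higher. This split depended on the scale of the libraries, and after upper-quartile scaling 1804 genes were called lower and 1812 higher. The median log2 fold change of the tested genes was 0.15 as deposited and -0.09 after that scaling. All 134 members had a ratio under 1 under each of the 4 other scalings tried, and 132 of them were among the genes called lower, with *Spa17* and *Gtsf1* not called; the choice of members fixes that count.

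Just inside the limit lay *Emc2* at a ratio of 0.595, *Cfap300* at 0.595 and *Cage1* at 0.599, and just outside it lay *Ybx3* at 0.601, *Pdpn* at 0.603 and *Zfp932* at 0.605. The genes on either side of the limit had similar values, with means of 71.2 FPKM in Bnc1tr/tr and 119 FPKM in WT for *Cage1* and of 46.1 and 76.7 FPKM for *Ybx3*, which encodes a Y-box protein that binds messenger RNA.

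The lowest ratios belonged to genes of unlike function. *Plpp1*, a phosphatase that removes the phosphate of phosphatidic and lysophosphatidic acid, was at 150.1, 177 and 205 FPKM in WT and 21.4, 39.5 and 46.9 FPKM in Bnc1tr/tr, a ratio of 0.202. *Aadac*, an esterase of the endoplasmic reticulum, was at 43.9, 70.8 and 58.6 FPKM in Bnc1tr/tr and 177, 219 and 281 FPKM in WT. *Gnrh1*, the precursor of gonadotropin-releasing hormone, was the most abundant of this group at 162, 283 and 289 FPKM in the mutant libraries against 629.8, 844 and 1011 FPKM in the WT libraries. In all 3 genes the highest mutant value was less than 0.5 of the lowest WT value.

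*Exosc9*, a core subunit of the RNA exosome, was among the tightest measurements at 66.99, 58.1 and 61.8 FPKM in WT and 17.1, 18.2 and 18.4 FPKM in Bnc1tr/tr. *Mrpl39*, a protein of the mitochondrial ribosome, was at 13.4, 33.6 and 21.4 FPKM in Bnc1tr/tr and 87.3, 74.8 and 72.8 FPKM in WT. *Lsp1*, an actin-binding protein best known from leukocytes, was at 16.5, 15.98 and 8.97 FPKM in the mutant libraries against 61.2, 56.7 and 40.8 FPKM in the WT libraries. The groups stood well apart in each, although *Mrpl39* varied more among the mutant than among the WT libraries. *Zfp345*, a zinc finger gene, was at 70.6, 75.2 and 92.1 FPKM in WT and 21.3, 17.96 and 14.03 FPKM in Bnc1tr/tr. The others among the 12 lowest ratios were *Rab5if* at 0.255, *Supt20* at 0.260, *Tmem243* at 0.299, *Fam229b* at 0.311 and LOC105247075 at 0.219, a locus whose WT values ranged from 70.5 to 160.1 FPKM.

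**Figure D2:**
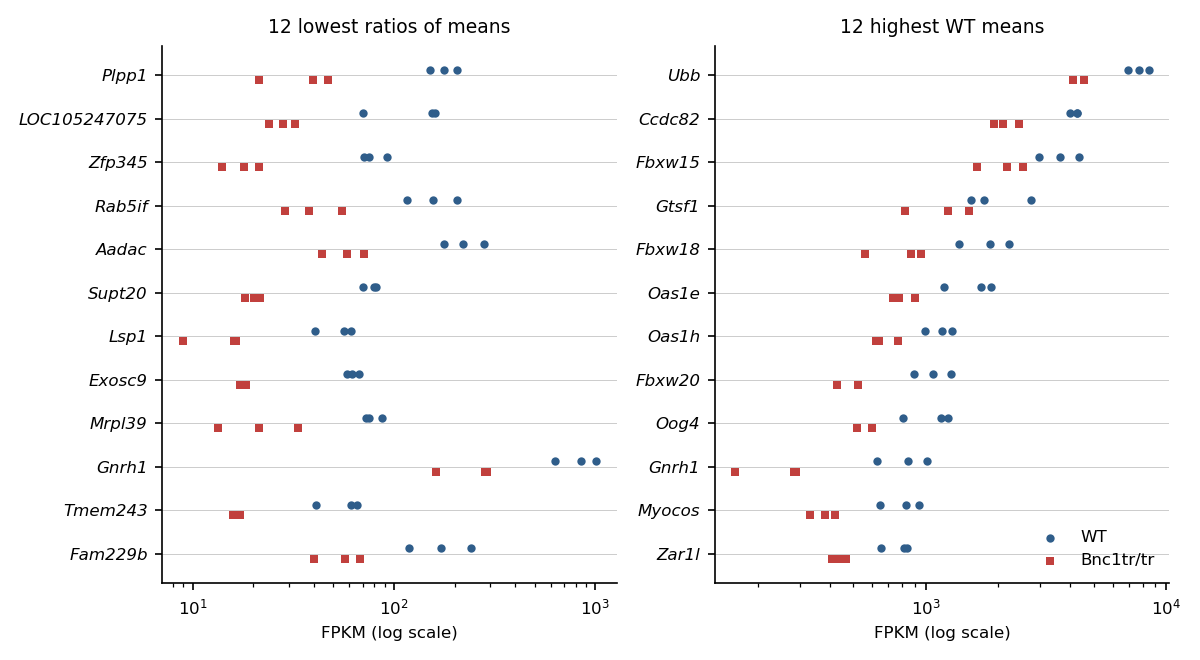
FPKM on a log scale in each library (blue circles, WT; red squares, Bnc1tr/tr; 3 libraries each) for the 12 lowered transcripts with the lowest ratios of means (left) and the 12 with the highest WT means (right). No red square reaches a blue circle, as the criteria require; between the highest mutant and the lowest WT library the gap is widest for *Zfp345* at 21.3 against 70.6 FPKM and narrow for *Gtsf1* at 1509.5 against 1536 FPKM.

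The most abundant member was *Ubb*, which encodes a chain of joined ubiquitins, at 4090.1, 4563 and 4100.3 FPKM in Bnc1tr/tr and 6953, 7684 and 8463 FPKM in WT. *Ccdc82*, a coiled-coil gene, was at 2102, 2444 and 1931 FPKM in the mutant libraries against 4257, 4241 and 3987 FPKM in the WT libraries, and its WT libraries lay within a narrow range. *Gtsf1*, a germ-cell zinc finger protein of the piRNA pathway, was at 1536, 1754 and 2732 FPKM in WT and 824, 1509.5 and 1240.1 FPKM in Bnc1tr/tr. Its second mutant library came close to the first WT library, and it was not called by limma. *Myocos*, named for its place on the strand opposite to *Myoc*, was at 330.4, 379.8 and 421 FPKM in Bnc1tr/tr and 643, 828 and 934 FPKM in WT, and reads of both strands cannot be told apart in libraries without strand information. The other abundant members belong to families described next.

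Because the criteria use all 6 libraries, the choice was repeated on 2 libraries per genotype and the genes were then read in the left-out pair. Over the 9 ways to leave out a pair, 117 to 212 genes were chosen. In the left-out pair their median ratio was 0.472 to 0.721, beside 0.906 to 1.01 for the genes not chosen, and 79.5% to 99.3% of them were below 1, beside 48.3% to 62.1%. A ratio of at most 0.6 was met in 32.5% to 82.9% of the chosen genes and in 2.39% to 13.9% of the others. The 4 highest medians came from pairs with Bnc1tr/tr replicate 2 or WT replicate 3, and the lowest from Bnc1tr/tr replicate 1 with WT replicate 2. In 6 of the 9 pairs the median was above the limit of 0.6 used for choosing.

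**Figure D3:**
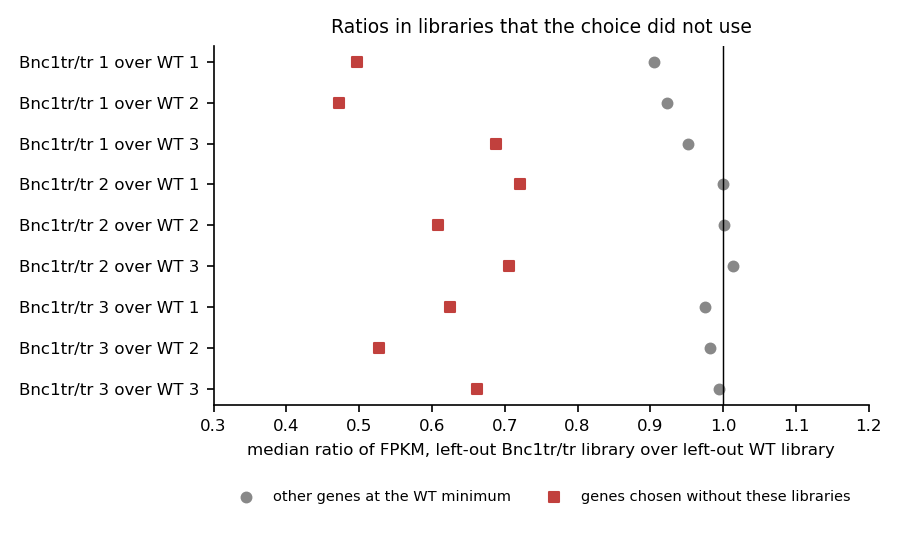
Median ratio of FPKM in a left-out Bnc1tr/tr library over a left-out WT library, for genes chosen by the criteria on the other 4 libraries (red squares) and for the genes at the WT minimum that were not chosen (grey circles), in each of the 9 left-out pairs. The chosen genes sit between 0.472 and 0.721 and the others between 0.906 and 1.01.

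Of the 9 members with a WT mean of at least 1000 FPKM, 3 belonged to the oocyte Fbxw cluster. These genes encode F-box proteins with WD repeats, the kind of subunit that brings substrates to a ubiquitin ligase, and lie in tandem on chromosome 9 (GRCm38.p6, chr9:109139454-109790660). All 14 genes of the cluster listed were above the WT minimum and 5 were members. *Fbxw18* was at 559.9, 868 and 955 FPKM in the mutant libraries against 1371, 1856 and 2212 FPKM in the WT libraries, and *Fbxw20* was at 891, 1076 and 1273 FPKM in WT and 427, 523 and 520.5 FPKM in Bnc1tr/tr. *Fbxw13* was at 213, 312 and 303 FPKM in Bnc1tr/tr and 432, 579.7 and 668 FPKM in WT, the third of these genes with a ratio under 0.5.

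*Fbxw15* was the most abundant of the 5 members at 1629, 2546 and 2173 FPKM in the mutant libraries against 2965, 3609 and 4338 FPKM in the WT libraries, and *Fbxw23* the least at 160.1, 218 and 286 FPKM in WT and 96.8, 143 and 144 FPKM in Bnc1tr/tr. The ratio over the cluster ran from 0.438 for *Fbxw18* to 0.983 for *Fbxw14*, with a median of 0.687. Of the 14 genes, 6 were called lower by limma (42.9%) and 0 higher. Over all genes at the WT minimum the shares were 11.6% and 7.64%, and over all genes tested 7.68% and 24.1%. The list of this cluster was written after the values were seen, and the calls of its members say nothing beyond the criteria. The ratios nearest 1 belonged to *Fbxw14*, at 3654, 3829.7 and 4261 FPKM in Bnc1tr/tr and 3235, 3971 and 4739 FPKM in WT, and to *Fbxw28* with 0.927. Both share much of their sequence with other genes, 81.4% and 79.96% of their 31-base words, so their values may include reads of relatives. The members of the cluster share 15.2% to 32.97%, and *Fbxw21* and *Fbxw19*, with ratios of 0.911 and 0.904, share 20.9% and 25.9%. The part of shared reads in these ratios was not tested. In all 5 member genes WT replicate 3 was the highest library and Bnc1tr/tr replicate 1 the lowest. The same held for *Fbxw16*, *Fbxw19*, *Fbxw22*, *Fbxw24* and *Fbxw27*, which were not members.

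The promoters of the cluster are close relatives of each other. Without *Fbxw23*, the 10 promoters in the RefSeq table (250 bases before to 50 after the start) were 74.7% to 97.3% identical in pairs, with a median of 88%, and *Fbxw23* was 47% to 52.3% identical to them. The 3 pairs among the members *Fbxw15*, *Fbxw18* and *Fbxw20* were 81.3%, 88.3% and 90% identical, beside a median of 87.7% between these members and the rest; *Fbxw13* had no promoter in the table. The promoter of *Fbxw18*, the gene with the lowest ratio, and that of *Fbxw14*, the gene with the highest, are printed here to show this (GRCm38.p6, both on the minus strand). Capitals mark bases that differ from the other promoter or have no counterpart in it, 35 in each, and 265 bases were identical.
Fbxw18 chr9:109702651-109702950: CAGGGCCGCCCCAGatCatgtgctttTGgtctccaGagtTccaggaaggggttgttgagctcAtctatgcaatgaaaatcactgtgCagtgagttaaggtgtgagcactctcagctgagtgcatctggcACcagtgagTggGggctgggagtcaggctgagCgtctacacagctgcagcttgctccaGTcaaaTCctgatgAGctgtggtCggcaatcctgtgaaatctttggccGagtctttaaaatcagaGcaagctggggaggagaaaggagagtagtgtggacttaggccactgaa
Fbxw14 chr9:109287627-109287926: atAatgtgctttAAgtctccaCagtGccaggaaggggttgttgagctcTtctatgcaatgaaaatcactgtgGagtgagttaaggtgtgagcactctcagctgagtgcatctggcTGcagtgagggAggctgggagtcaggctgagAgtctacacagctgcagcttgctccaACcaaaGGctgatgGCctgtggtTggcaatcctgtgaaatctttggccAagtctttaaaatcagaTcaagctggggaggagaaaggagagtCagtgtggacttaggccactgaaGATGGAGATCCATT

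**Figure D4:**
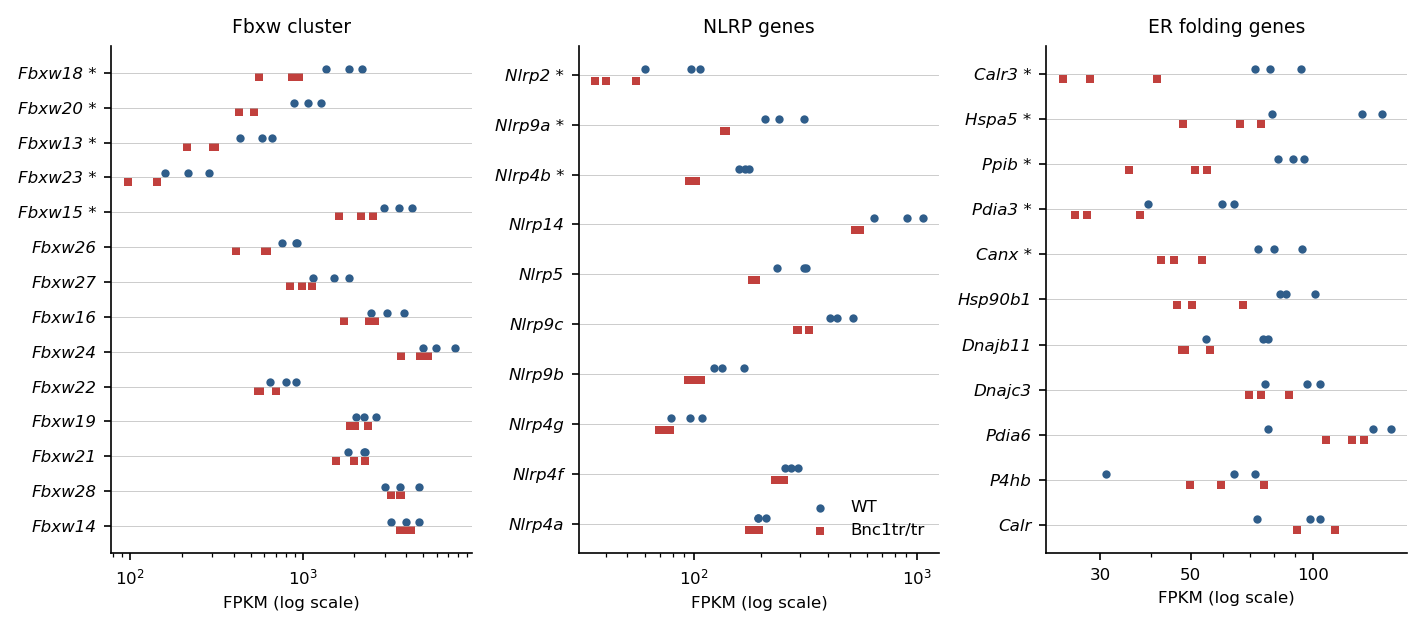
FPKM on a log scale in each library (blue circles, WT; red squares, Bnc1tr/tr; 3 libraries each) for the genes at the WT minimum of the Fbxw cluster, the NLRP family and the genes of protein folding in the endoplasmic reticulum (ER), ordered by the ratio of means with the lowest on top; stars mark members. Within each family the members are the end of a gradient: the ratio reaches 0.983 for *Fbxw14*, 0.940 for *Nlrp4a* and 1.15 for *Calr*.

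Other oocyte-specific families were lowered in part. A list of leucine-rich Oog and PRAME-like genes was written after the values were seen. Of its 6 genes at the WT minimum, 3 were members. Limma called 5 of the 10 tested lower (50%) and 0 higher, beside 7.68% and 24.1% over all genes tested. Over all genes at the WT minimum these shares were 11.6% and 7.64%. *Oog2* was at 122, 159 and 129 FPKM in the mutant libraries against 316, 323 and 338 FPKM in the WT libraries, *Oog4* at 1234, 1156 and 808 FPKM in WT and 595, 596 and 519 FPKM in Bnc1tr/tr, and C87977, named *Pramel29* in RefSeq, at 275, 293 and 195 FPKM in Bnc1tr/tr and 709.9, 738 and 729.7 FPKM in WT. Their relative *Oog3*, at 2210.4, 2166 and 2098 FPKM in the mutant libraries against 2968, 2546 and 3034 FPKM in the WT libraries, had a ratio of 0.757. *Oog2* shares over 50% of its 31-base words with other genes, so that reads could be split between copies.

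The oocyte members of the 2'-5'-oligoadenylate synthetase family divided in the same way. *Oas1e* was at 1861, 1696 and 1189 FPKM in WT and 773, 902 and 730.3 FPKM in Bnc1tr/tr and *Oas1h* at 638, 765 and 619 FPKM in Bnc1tr/tr and 1173, 1292 and 996 FPKM in WT, ratios of 0.507 and 0.584. *Oas1c*, *Oas1d* and *Oas1f* were at ratios of 0.883, 0.898 and 1.001, and their groups overlapped. Over the 21 abundant genes of the Obox, Oog, Tcl1 and Oas1 clusters, 4 were members. Every mutant value was below every WT value in 7 of the 21 and above in 6. Over all genes at the WT minimum these shares were 25.3% and 15.3%. The genes above included *Tcl1* and *Tcl1b4*, at ratios of 1.32 and 2.45.

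NLRP proteins of the oocyte include parts of the subcortical maternal complex, a protein lattice under the oocyte surface that the early embryo needs. *Nlrp2* was at 54.8, 40.2 and 35.9 FPKM in the mutant libraries against 106, 97.1 and 60.2 FPKM in the WT libraries, and its WT replicate 3 came close to the mutant libraries. *Nlrp9a* was at 313, 207 and 241 FPKM in WT and 137, 139 and 139.8 FPKM in Bnc1tr/tr, and *Nlrp4b* at 94.9, 98.3 and 102 FPKM in Bnc1tr/tr and 159, 176 and 170.1 FPKM in WT. The 3 mutant libraries were nearly equal for *Nlrp9a*, and the WT libraries spanned a narrow range for *Nlrp4b*.

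Of the 12 NLRP genes tested, 7 were called lower by limma (58.3%) and 0 higher. These calls include those of the 3 members. Over all genes at the WT minimum the shares were 11.6% and 7.64%, and over all genes tested 7.68% and 24.1%. The median ratio of the 10 NLRP genes at the WT minimum was 0.657, beside 0.934 over all genes at that minimum. *Nlrp14* and *Nlrp5*, called lower as well, had ratios of 0.625 and 0.646 and so fell outside the criteria. The other genes of the subcortical maternal complex were not members: *Tle6*, *Padi6*, *Ooep* and *Khdc3* had ratios of 0.716, 0.755, 0.855 and 0.865 with overlapping groups. *Zbed3* had a ratio of 1.40, also with overlapping groups.

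Among genes of the egg coat and of sperm binding, the zona pellucida gene *Zp2* was a member at 313, 423 and 424 FPKM in the mutant libraries against 784, 689.7 and 491 FPKM in the WT libraries. *Zp3* had a ratio of 0.634 with every mutant value below every WT value, and *Zp1* a ratio of 0.952 with overlapping groups. *Zar1l*, a relative of the zygote arrest gene that binds stored RNA, was the 1 member among 8 abundant genes of messenger RNA storage, at 654, 838 and 812 FPKM in WT and 440.4, 464 and 406 FPKM in Bnc1tr/tr. *Zar1* itself had a ratio of 0.822, and *Dazl* and *Ybx1*, which also bind RNA, were on the other side with ratios of 1.79 and 1.72.

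The spindle and the kinetochore gave the most members of any list outside the tandem families, 7 of 34 abundant genes. Some encode parts of 1 machine: *Tubb2a* and *Tuba3b* are a beta and an alpha tubulin, and *Dync1i2* and *Dynll1* an intermediate and a light chain of the motor dynein. *Tubb2a* was at 159.9, 159.9 and 163 FPKM in Bnc1tr/tr and 415, 346 and 187 FPKM in WT, with mutant libraries almost identical and WT replicate 3 near them. *Dync1i2* was at 88.1, 105 and 97.8 FPKM in the mutant libraries against 159.7, 187 and 197 FPKM in the WT libraries, and *Dynll1* at 165, 197 and 169 FPKM in WT and 93.6, 94.8 and 99.5 FPKM in Bnc1tr/tr. Their relatives *Dync1i1* and *Dynll2*, under the WT minimum, stood on the other side at ratios of 2.33 and 2.42, with every mutant value above every WT value.

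Kinetochore members came from its inner and its outer part. *Cenpq*, of the inner network bound to centromeric chromatin, was at 100.1, 126 and 138 FPKM in Bnc1tr/tr and 209, 236 and 292 FPKM in WT, and *Cenpk*, of the same network, at 108, 131 and 148 FPKM in the mutant libraries against 177, 215 and 343 FPKM in the WT libraries. *Ndc80*, which binds the microtubule, was at 67.4, 61.9 and 52.9 FPKM in WT and 32.6, 33.6 and 39.1 FPKM in Bnc1tr/tr. The groups were furthest apart in *Cenpq*, and in *Cenpk* the WT libraries spread widely. Other *Cenp* genes lay on both sides, such as *Cenps* at a ratio of 0.678 with every mutant value below every WT value. *Cenpt*, under the WT minimum, was at 3.81 with every mutant value above.

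In a list written after the values were seen, 4 of the 9 abundant genes of the SKA, HAUS and condensin complexes with *Nusap1* were members. *Ska3*, which couples NDC80 to microtubules, was at 20.3, 23.1 and 22.3 FPKM in Bnc1tr/tr and 64.8, 48.4 and 38.2 FPKM in WT. *Haus8*, of the augmin complex that starts microtubules within the spindle, was at 27.3, 23.9 and 31.4 FPKM in the mutant libraries against 85.3, 84.5 and 37.7 FPKM in the WT libraries. *Ncapg*, of condensin I, was at 278, 233 and 164 FPKM in WT and 105, 107 and 151 FPKM in Bnc1tr/tr, and *Nusap1*, which bundles spindle microtubules, at 78.6, 83.2 and 91.6 FPKM in Bnc1tr/tr and 155, 134 and 158 FPKM in WT. Over the whole list of 80 spindle and kinetochore genes tested, limma called 10 lower and 12 higher, which is 12.5% and 15%, beside 7.68% and 24.1% over all genes tested. The 28 abundant genes of the meiotic cell cycle and the anaphase-promoting complex held 0 members, beside 6.4% of all abundant genes. *Ube2c*, the ubiquitin-conjugating enzyme of that complex listed under ubiquitin, was a member at 200.4, 212 and 194 FPKM in the mutant libraries against 410.2, 386 and 289.6 FPKM in the WT libraries.

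Protein folding in the endoplasmic reticulum gave 5 members, which are the members in the broader list of heat shock proteins and chaperones. That list held 5 members among 47 abundant genes (10.6%), beside 6.4% of all abundant genes. Limma called 10 lower (11.8%) and 9 higher (10.6%) of its 85 tested genes, beside 7.68% and 24.1% over all genes tested. A narrower list of folding genes of this compartment, written after the values were seen and so around these members, held 5 among 11. *Hspa5*, the main chaperone of this compartment (BiP), was at 132, 148 and 79.3 FPKM in WT and 66.2, 47.8 and 74.5 FPKM in Bnc1tr/tr, and WT replicate 3 lay close to the mutant libraries. *Canx*, calnexin, was at 45.6, 42.2 and 53.3 FPKM in Bnc1tr/tr and 79.9, 73.3 and 93.8 FPKM in WT, and *Calr3*, a germ-cell calreticulin, at 24.3, 28.3 and 41.4 FPKM in the mutant libraries against 78.1, 93.4 and 71.7 FPKM in the WT libraries. *Pdia3*, a disulphide isomerase that works with both, was at 59.7, 63.9 and 39.2 FPKM in WT and 27.8, 26.04 and 37.6 FPKM in Bnc1tr/tr, and the prolyl isomerase *Ppib* at 54.96, 35.2 and 51.2 FPKM in Bnc1tr/tr and 89.1, 94.8 and 81.6 FPKM in WT.

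Limma called 8 lower (40%) and 3 higher (15%) of the 20 tested genes of the narrower list, beside 7.68% and 24.1% over all tested. Genes of that list that were not lowered included *Calr* at a ratio of 1.15 and *P4hb* at 1.11, both with overlapping groups. *Dnajb9*, a co-chaperone of this compartment, stood on the other side at 34.4, 39.8 and 46.4 FPKM in the mutant libraries against 9.43, 9.28 and 8.97 FPKM in the WT libraries. *Hsp90b1* and *Pdia4*, which were not members, had ratios of 0.608 and 0.653 with every mutant value below every WT value. *Emc2*, of the complex that inserts membrane proteins there, was a member at a ratio of 0.595.

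Processing of non-coding RNA gave 5 members among 22 abundant genes, again in a list written after the values were seen. Besides *Exosc9* these were *Rpp21* at 246, 291 and 392 FPKM in WT and 184, 189 and 180.1 FPKM in Bnc1tr/tr and *Rpp25l* at 74.05, 86.7 and 65.7 FPKM in Bnc1tr/tr and 150.1, 115 and 128 FPKM in WT, the former of RNase P, which trims transfer RNA, and the latter named as like another of its subunits. *Imp4* was at 63.5, 76.9 and 62.4 FPKM in the mutant libraries against 145, 130.5 and 78.03 FPKM in the WT libraries and *Utp4* at 229, 205 and 144 FPKM in WT and 97.6, 125 and 112 FPKM in Bnc1tr/tr, both needed for the small ribosomal subunit. Other exosome genes at the WT minimum lay on both sides. *Exosc1* had a ratio of 0.625 with every mutant value below every WT value, and *Exosc3* one of 1.54 with every mutant value above. *Exosc4*, *Exosc7* and *Exosc8* had ratios of 0.925, 1.17 and 1.09 with overlapping groups.

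Among regulators of transcription, *Supt20* and *Sgf29* encode subunits of the SAGA coactivator complex. *Supt20* was at 18.3, 21.6 and 20.1 FPKM in Bnc1tr/tr and 70.01, 81.1 and 79.9 FPKM in WT, and *Sgf29*, the reader of methylated histone H3, at 107, 139 and 119 FPKM in the mutant libraries against 354, 344 and 294 FPKM in the WT libraries. In a list of SAGA genes written after the values were seen, these 2 were the members among 6 at the WT minimum. The others, *Taf9*, *Taf12*, *Eny2* and *Tada1*, had ratios of 0.986, 0.872, 0.862 and 1.04. *Kat8*, an acetyltransferase of histone H4, was at 347, 266 and 244 FPKM in WT and 154, 166 and 161 FPKM in Bnc1tr/tr, and *Smarca2*, an ATPase of the SWI/SNF remodeller, at 45.5, 67.7 and 67.3 FPKM in Bnc1tr/tr and 95.1, 145 and 180.03 FPKM in WT, the 1 member among 22 abundant chromatin genes.

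Zinc finger genes gave 6 members among 27 at the WT minimum, *Zc3h6*, *Zfp58*, *Zfp345*, *Zfp51*, *Zfp108* and *Zfp980*. *Zc3h6* was at 93.2, 90.2 and 95.1 FPKM in the mutant libraries against 177, 189.5 and 153 FPKM in the WT libraries, and *Zfp58* at 89.3, 90.4 and 86.7 FPKM in WT and 34.03, 37.9 and 34.2 FPKM in Bnc1tr/tr. *Zfp58*, *Zfp345* and *Zfp980* share over 50% of their 31-base words with other genes. Over the 290 zinc finger genes tested limma called 44 lower (15.2%) and 58 higher (20%), beside 7.68% and 24.1% over all genes tested.

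Mitochondrial members were spread over several tasks. The mitochondrial ribosome gave 2 of 47 abundant genes, *Mrpl9* at 59.9, 39.04 and 28.4 FPKM in Bnc1tr/tr and 115, 114 and 63.9 FPKM in WT and *Mrpl39*. *Atpif1*, the inhibitor of ATP synthase, was at 37.7, 53.1 and 44.9 FPKM in the mutant libraries against 60.7, 70.4 and 116 FPKM in the WT libraries, the 1 member among 72 abundant genes of oxidative phosphorylation. In *Mrpl9* the third WT library came close to the first mutant library, and in *Atpif1* it stood above the rest. *Tomm22*, a receptor of protein import, was at 144, 118 and 114 FPKM in WT and 55.1, 84.4 and 80.7 FPKM in Bnc1tr/tr. *Slc25a26*, which carries S-adenosylmethionine into mitochondria, was at 37.9, 37.4 and 41.9 FPKM in Bnc1tr/tr and 83.5, 93.97 and 62.2 FPKM in WT, and *Fis1*, of mitochondrial fission, at 35.4, 41.9 and 47.4 FPKM in the mutant libraries against 71.7, 77.6 and 68.6 FPKM in the WT libraries. Limma called 4 lower (5.88%) and 9 higher (13.2%) among the 68 tested genes of mitochondrial import and dynamics. Among the 77 of the mitochondrial ribosome it called 3 in each direction (3.9%), beside 7.68% lower and 24.1% higher over all genes tested.

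Single enzymes of metabolism made up another part. *Fdft1*, squalene synthase, was at 256, 240.2 and 137 FPKM in WT and 106, 93.8 and 98.5 FPKM in Bnc1tr/tr, while 10 of the 19 cholesterol synthesis genes tested were called higher (52.6%) and 1 lower (5.26%). *Tpi1*, a glycolytic isomerase, was at 39.9, 27.5 and 16.3 FPKM in Bnc1tr/tr and 84.1, 73.99 and 51.9 FPKM in WT. The mutant libraries agreed closely for *Fdft1* and spread widely for *Tpi1*. *Gsta4*, which conjugates aldehydes of oxidized lipids to glutathione, was at 78.8, 119.5 and 100.01 FPKM in the mutant libraries against 200.1, 189 and 229 FPKM in the WT libraries. *Plpp1*, described above, was the 1 member among 14 abundant genes of phospholipid and fatty acid metabolism, of whose 93 tested genes 3 were called lower (3.23%) and 34 higher (36.6%), beside 7.68% and 24.1% over all genes tested.

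Replication and nuclear transport each gave 1 member. *Gins2*, of the replicative helicase, was at 183, 188 and 141 FPKM in WT and 80.8, 99.6 and 94.7 FPKM in Bnc1tr/tr, and *Ran*, the GTPase of nuclear transport and spindle assembly, at 57.9, 45.6 and 48.3 FPKM in Bnc1tr/tr and 110.5, 132 and 96.3 FPKM in WT. *Arpc3*, of the actin-nucleating ARP2/3 complex, was at 34.1, 32.4 and 47.8 FPKM in the mutant libraries against 77.7, 63.6 and 66.7 FPKM in the WT libraries, the 1 member among 14 abundant genes of actin and the cell cortex. *Hikeshi*, which carries heat shock protein 70 into the nucleus and is in none of the lists, was at 184, 215 and 224 FPKM in WT and 92.5, 125 and 131 FPKM in Bnc1tr/tr.

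Several lists of abundant genes held no member, beside a share of 6.4% over all abundant genes. These were the 71 abundant genes of cytosolic ribosomal proteins (median ratio 0.971), 33 of the proteasome (0.940), 29 translation factors (0.867), 34 of pre-mRNA splicing (0.942) and 41 of secretory and vesicle traffic (1.01), a list that leaves out the members *Use1* and *Trappc6b* of the same process, at ratios of 0.474 and 0.562. Of the 37 functional lists, 22 held at least 1 member and 15 held none. The lists covered 50 of the 134 members (37.3%) and 37.7% of all genes at the WT minimum. A function shared by all members was not found, and 84 members were in none of the 37 lists, 74 when the lists written after the values were seen are counted too.

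Among those 84 were *Glmn*, which inhibits cullin ligases, with a ratio of 0.510, the cell death inhibitor *Aven* with 0.541, and the kinase gene *Cdk20* with 0.403. Enzymes among them were *Acat1* of ketone body metabolism (0.549), *Me2*, a malic enzyme (0.574), *Fbp1* of gluconeogenesis (0.564), *Gmps* of purine synthesis (0.497) and *Lonp2*, a peroxisomal protease (0.448). Genes named for sperm or testis included *Spata24* (0.405), *Spata7* (0.495), *Spa17* (0.543), *Tex26* (0.537), *Spag7* (0.590) and *Cage1*. *Spa17*, not called by limma, was at 36.8, 53.00 and 32.7 FPKM in Bnc1tr/tr and 56.04, 58.2 and 112 FPKM in WT, so that its libraries spread widely in both genotypes. Of the 134 genes, 131 were found in the RefSeq gene table, all as protein-coding, and LOC105247075, 105246811 and *Gm8787* were not.

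The members were searched for the cytoplasmic polyadenylation element (CPE), the sequence bound by CPEB1 that governs the tail length of stored RNA in the oocyte. TTTTAT or TTTTAAT, read in DNA letters on the transcript strand, was searched in the last 100 bases of 1 GENCODE M21 transcript per gene. It was present in 11 of the 132 members with a transcript (8.33%) and in 395 of the 1947 other genes at the WT minimum (20.3%). Over all abundant genes the share in this window was higher in each class of higher ratio. It was 7.86% at a ratio of at most 0.6, 15.2% from 0.6 to 0.8, 20.9% from 0.8 to 1.2, 24.8% from 1.2 to 1.6 and 26.6% above 1.6.

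The median GC content of this window was 36% in members and in the others. TATTTT, the letters of the first element in another order, was present in 12.9% of members and 16.7% of the others. A polyadenylation signal (AATAAA or ATTAAA) was about as frequent in members (79.5%) as in the others (81.4%), and among genes with such a signal 8.57% of members and 21.3% of the others held the element. In the last 50 bases the shares were 3.79% and 11.6%, in the last 200 bases 18.9% and 28.7%, and over any annotated transcript of the gene 27.3% and 38.1%. In the last 200 bases and over any transcript the highest ratio class did not continue the order, with 35.1% from 1.2 to 1.6 and 34.9% above for the former, and 48.1% and 40.4% for the latter. The ends that these oocytes use and the length of the tails were not measured, and the oligo(dT) primer reads an RNA from its tail.

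The members with an element and the highest WT means were *Gnrh1*, *Ncapg*, *Cdk20*, *Intu*, a gene of planar cell polarity and cilia, and *Trappc6b*, of a vesicle tethering complex. Their elements are shown in capitals within 30 bases of the transcript, with the position of the element in GRCm38 and its strand, as exceptions among the members. The last base of the element lay 45, 37, 49, 67 and 16 bases before the annotated end.
Gnrh1, chr14:67749389-67749394, plus: aagcttgagcgtTTTTATacccagcagcgt
Ncapg, chr5:45700504-45700509, plus: ctaacatgaaatTTTTATtgtgcttctgct
Cdk20, chr13:64441719-64441724, plus: tggagggctgtgTTTTATtgcagtgccaaa
Intu, chr3:40704702-40704707, plus: aattatgaagagTTTTATttctgtatgtaa
Trappc6b, chr12:59043108-59043114, minus: cttgaaagtttaTTTTAATagacttgagtc

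The other members with an element were *Ppib*, *Mtmr2*, *Ndc80*, *Rars2*, BC024063 and *Pdia3*. The most abundant members, among them *Ubb*, *Ccdc82*, *Zar1l* and all 5 Fbxw genes, were not among the 11.

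**Figure D5:**
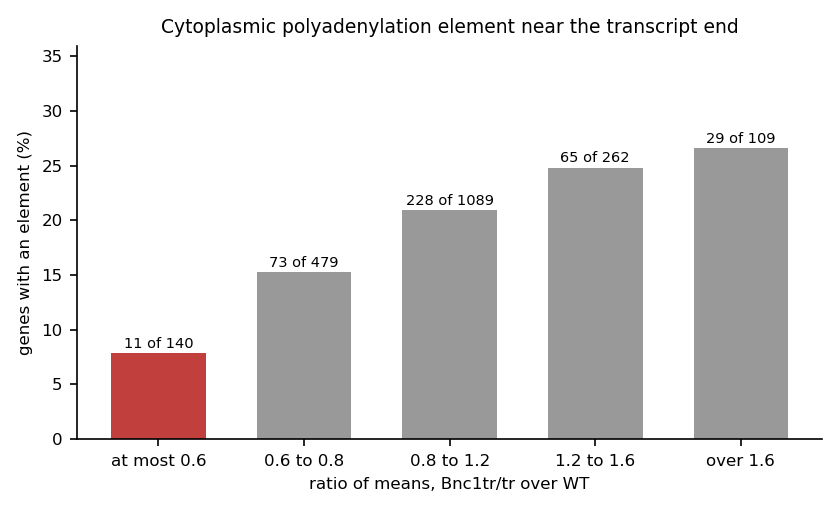
Share of genes whose transcript has TTTTAT or TTTTAAT in its last 100 bases, by the ratio of means (Bnc1tr/tr over WT), for the genes at the WT minimum with a transcript; the number of genes stands over each bar. The share is 7.86% (11 of 140 genes, red) at a ratio of at most 0.6 and 26.6% (29 of 109 genes) above 1.6.

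Other features of the transcripts differed little. Members had a median length of 1884 bases and a GC content of 46.9%, beside 1703 bases and 48.5% for the other abundant genes. Over 50% of the 31-base words were shared with other genes in 15 members (11.4%) and in 11.6% of the others, and besides those named above the 15 include *Ubb*, *Tubb2a*, *Ppib*, *Gins2*, *Serpinc1* and *Sp110*. The median WT mean was 127 FPKM for members and 130 FPKM for all genes at the WT minimum.

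Promoters were available for 105 members and 1597 of the others. Members had a median of 17 CpG dinucleotides in 300 bases and the others 21. TATAAA on the gene's strand was in 4.76% of members, 5.51% of the others and 8.88% of all 27025 promoters in the table. CACGTG, an E-box that reads the same on both strands, was in 8.57%, 10.02% and 7.24%, and the wider CANNTG, which includes it, in 69.5%, 63.6% and 72.1%. TAATTG on either strand, a motif of the homeobox factor NOBOX, was in 8.57%, 5.57% and 8.15%.

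By chromosome, chromosome 9 held 17 members, 11.97% of its 142 abundant genes and the highest share, with the 5 Fbxw genes among them. Chromosome 5 followed with 13 of 142 (9.15%), among them *Oas1e* and *Oas1h*. The X chromosome held 0 members among 63 abundant genes, beside 6.4% of all abundant genes.

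The members varied among WT libraries in 2 opposite ways. WT replicate 3 was the highest WT library in 53 members, such as *Gnrh1* and the Fbxw genes, and the lowest in 62, such as *Tubb2a*, *Hspa5* and *Nlrp2*. The former had a median transcript length of 1511 bases and the latter of 2093 bases. Without WT replicate 3 the median ratio of the former became 0.560 and that of the latter 0.471, in directions that this grouping fixes. Among the other abundant genes WT replicate 3 was the highest in 44.3% and the lowest in 43.7%. The median coefficient of variation of the members was 17.4% in WT and 13.8% in Bnc1tr/tr, beside 14.2% and 11.7% in the others. Of the mutant libraries, replicate 1 was the lowest in 80 members (59.7%), beside 49.3% of the others.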

How the data were processed

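Per the labels and the study's methods, cDNA of GV oocytes was amplified and sequenced by the authors, who deposited 1 table of FPKM per library; the submitters' processing notes name HISAT2 2.0.4, Bowtie2 2.2.5, RSEM 1.2.12 and GRCm38.p6 without their order. A count model planned for the background was replaced by limma 3.58.1 (R 4.3.3) on log2(FPKM + 1), since the deposited values were FPKM, with a filter at a mean of 1 FPKM and Benjamini-Hochberg adjustment. The members and the lists were chosen with earlier results of these data known; 6 lists were written after the values were seen. Genes were named as the 12 lowest ratios, the 12 highest WT means, the 2 highest WT means of each list and the 3 nearest each side of the limit; others were named after their values were seen. Symbols that a spreadsheet had turned into dates (25) were restored by gene ID. Transcripts were those of GENCODE M21, the longest principal isoform of a gene. Code was tested on simulated data. Figures were drawn with matplotlib 3.10.9.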

Additional observations from a re-analysis of the deposited data

How the results depend on the processing

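The number of members, 134 as deposited, depended on the scale and the limits. It was 409 after upper-quartile scaling and 321 after median-ratio scaling, both of which include the 134, and 157 after quantile normalization, of which 129 are members. A ratio limit of 0.5 left 57 and one of 0.7 gave 281; a WT minimum of 100 FPKM left 75 and one of 20 FPKM gave 246. Leaving out 1 library gave 129 to 185 genes, of which 112 to 131 are members. Limma called 1804 genes lower after upper-quartile scaling, 1543 with median ratios and 1848 when the distributions were made equal by quantile normalization, against 811, and 1627 higher after quantile normalization, against 2547. Without 1 library it called 2390 to 3597 genes in all, 1867 to 2560 higher and 416 to 1037 lower; the lowest were 416 without WT replicate 2, 523 without Bnc1tr/tr replicate 1 and 535 without Bnc1tr/tr replicate 3. The cause was not tested. In a fit with a replicate block 3733 genes were called, against 3358, with 2781 higher and 952 lower. Same-numbered libraries deviated from their group means with correlations of 0.28, -0.03 and 0.12. With 3 libraries per genotype these values do not decide whether same-numbered libraries were paired. The share of members with a CPE, 8.33%, was 3.79% in 50 bases, 18.9% in 200 bases and 27.3% over any transcript, by construction of the window, and 9.26% to 10.2% without 1 library. The alternatives for this share and the restriction to a mean of 50 FPKM over all libraries, which left 104 members, were chosen after seeing the data. For the 44 members named by rule (not the others printed), 396 alternative values of the log2 ratio were all below 0, and 40 moved by more than the spread between replicates. The criteria fix the sign of the values without 1 library, so the signs say nothing beyond the criteria.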
